A study of Mus musculus with 6 samples.

Results

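Dazl, Mael, Tex19.1, Sycp3, Stk31, Asz1, Taf7l, Rhox5, Fkbp6 and Hormad1 are germline genes whose promoters are known to be silenced by DNA methylation in somatic cells. They were chosen by symbol, with earlier results of these data known. The 10 genes are set against the 16279 genes that the mESC or the CPCC table lists. Both tables list 7 of them (Dazl, Tex19.1, Rhox5, Stk31, Fkbp6, Hormad1 and Sycp3). Mael and Asz1 are listed for mESCs only, and Taf7l is in neither table. A table leaves out every gene with fewer than 10 counts summed over its 3 libraries.

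The libraries came from bulk RNA-seq of cDNA made from polyadenylated RNA, with 3 libraries of mouse embryonic stem cells (mESCs) and 3 of cardiac precursor cell cultures (CPCCs). All 6 were male and of the strain C57BL/6 x CAST/EiJ, an F1 cross with C57BL/6J mothers and CAST/EiJ fathers. The mESCs were clonal lines from separate blastocysts, kept in 2i medium, which holds stem cells in a naive state. The CPCCs were derived from those lines through hanging drops and ascorbic acid and then passaged in an enrichment medium, so they are mixed cultures of several cell types and share their lines with the mESCs. The columns carry no replicate numbers, so libraries are named by column, from S01 to S03 among the mESCs and from S04 to S06 among the CPCCs, and no CPCC library was matched to its parent line. Library totals were 6442639 to 6907330 counts in mESCs and 8468819 to 11436062 counts in CPCCs. DNA methylation was not among the data analysed here.

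In the body most of these genes are on in germ cells and off in nearly every other tissue, though Rhox5 is known from Sertoli cells and placenta. The promoters of these genes hold CpG dinucleotides, which become methylated around implantation and lose the methyl groups again in primordial germ cells. Stem cells in 2i medium have little DNA methylation and are known to transcribe some of these genes. A further brake in stem cells is PRC1.6, a Polycomb complex that reaches germline promoters through the DNA-binding pairs MGA with MAX and E2F6 with its DP partner. MGA and MAX bind the letters CACGTG, called an E-box.

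The promoter windows of the members are given first, because CpG content and the E-box are what the silencing of these genes is known for. RefSeq windows on GRCm38.p6, from 250 bases before to 50 bases after the gene start, were found for 10 of the 10 genes. CACGTG reads the same on both strands. It was present in the windows of 6 of the 10 genes, as against 9.84% of the 12479 listed genes that have a window and 7.15% of all 32851 windows. The stretches of 30 bases around each match are shown 5′ to 3′ on the strand of the gene, with the E-box in capitals:
Mael (chr1:166238950-166238979, minus strand): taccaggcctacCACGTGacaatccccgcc
Sycp3 (chr10:88459511-88459540, plus strand): gccgttggctccCACGTGagaacgggcatg
Sycp3 (chr10:88459532-88459561, plus strand): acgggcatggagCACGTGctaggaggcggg
Stk31 (chr6:49395472-49395501, plus strand): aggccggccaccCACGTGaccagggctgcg
Taf7l (chrX:134476522-134476551, minus strand): accctcttatacCACGTGacagaactcgcc
Fkbp6 (chr5:135350128-135350157, minus strand): tgcgcctgccatCACGTGtgcagcgcgtgc
Fkbp6 (chr5:135350064-135350093, minus strand): gcgtctatcgatCACGTGccgtttctctcg
Hormad1 (chr3:95559608-95559637, plus strand): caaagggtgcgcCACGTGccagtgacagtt
Hormad1 (chr3:95559645-95559674, plus strand): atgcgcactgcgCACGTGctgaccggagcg
Sycp3, Fkbp6 and Hormad1 each held 2 matches, which 1.02% of the listed genes with a window and 0.594% of all windows did. The matches lay close to the start in Hormad1, with first bases 57 and 20 bases before it, and in Sycp3, at 64 and 43 bases. Those of Fkbp6 lay 101 and 37 bases before the start, that of Taf7l 49, that of Stk31 120 and that of Mael 223. The windows of Dazl, Tex19.1, Asz1 and Rhox5 held none. Letters bound by E2F factors, GGCGGGA or TCCCGCC on the other strand, were in the windows of Mael and Hormad1, that is 2 of 10 genes, as against 19.9% of the listed genes with a window and 11.3% of all windows. A match of letters is a description of the window and not a measured binding site.

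CpG content differed widely among the members. Dazl and Stk31 had 28 CpG in their windows, Mael and Hormad1 24, Fkbp6 21, Asz1 and Taf7l 17, Tex19.1 16 and Sycp3 15. Rhox5, an X-linked homeobox gene, had 5. The median of the members, 19.0, equalled that of all 12479 genes with a window, whose quartiles were 10 and 28. The ratio of observed to expected CpG had a median of 0.77 in the members and 0.73 in all genes, with 0.36 in Rhox5 and 1.03 in Taf7l. A CpG-rich window and the poorest are shown by the 250 bases before the start of Dazl and Rhox5, 5′ to 3′, with CpG in capitals:
Dazl (chr17:50293621-50293870, minus strand): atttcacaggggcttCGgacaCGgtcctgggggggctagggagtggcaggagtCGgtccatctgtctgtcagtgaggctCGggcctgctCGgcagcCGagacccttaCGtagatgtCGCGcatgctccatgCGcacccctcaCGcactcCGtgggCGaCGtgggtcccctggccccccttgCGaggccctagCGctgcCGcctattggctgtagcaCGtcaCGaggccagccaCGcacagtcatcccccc
Rhox5 (chrX:37754358-37754607, plus strand): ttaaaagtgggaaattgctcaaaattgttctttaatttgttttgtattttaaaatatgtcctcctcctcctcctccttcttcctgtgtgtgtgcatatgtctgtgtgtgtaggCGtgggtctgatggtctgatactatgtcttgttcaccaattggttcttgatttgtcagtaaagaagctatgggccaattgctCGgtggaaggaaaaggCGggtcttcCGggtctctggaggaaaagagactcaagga
These stretches hold 20 CpG in Dazl and 4 in Rhox5.

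**Figure D1:**
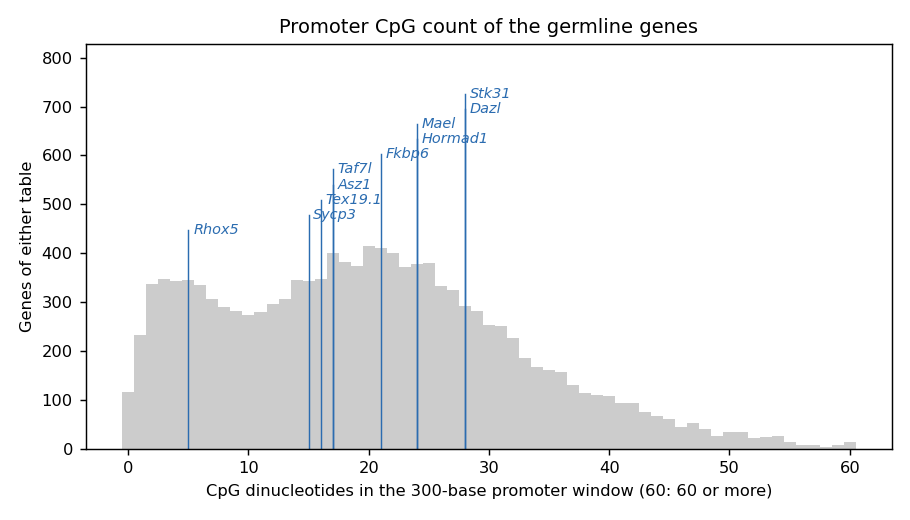
The grey bars count genes of either table by the number of CpG dinucleotides in their 300-base RefSeq promoter window, and the blue lines mark the 10 germline genes (the height of a line has no meaning). Rhox5, with 5 CpG, stands below the lower quartile of all genes (10), and the other 9 genes lie between 15 and 28.

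All 7 members listed in both tables had lower levels in CPCCs than in mESCs, from 7.79-fold in Sycp3 to 71.6-fold in Dazl. The comparison asks how far RNA of these genes is lost when stem cells become cardiac precursor cultures. By edgeR's quasi-likelihood test all 7 passed an adjusted p under 0.05, where 29.7% of the 12471 genes tested were lower, 31.7% higher and 61.4% different in either direction. In all 7 the lowest mESC value exceeded the highest CPCC value, which 34.5% of all genes tested did. At least 10-fold lower were 6 of the 7, against 2.26% of all genes tested. The median log2 fold change of the 7 was −4.73, and −4.52 over 9 genes with Mael and Asz1 at their bounds, while that of all genes tested was 0.03, with a 5th percentile of −2.34. Stk31, Hormad1 and Sycp3 passed the filter on low counts only through their mESC libraries, so a gene of this kind had to be lower in CPCCs to be tested at all. Dazl, Tex19.1, Rhox5 and Fkbp6 passed in all 6 libraries. In bulk RNA, fewer cells that transcribe a gene and less RNA in each cell cannot be told apart.

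**Figure D2:**
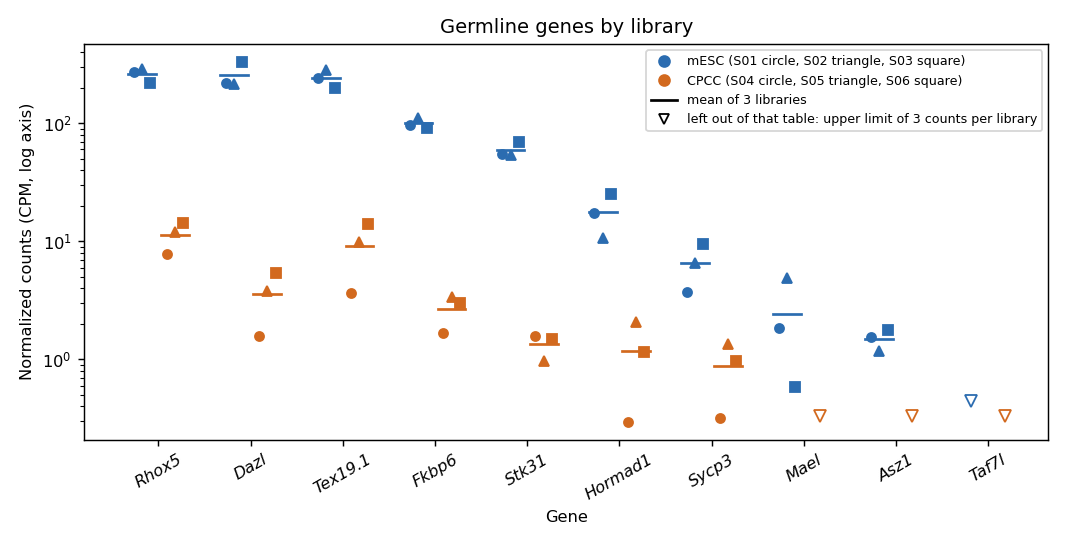
Level of each germline gene in each library, in CPM on a log axis, with mESC libraries in blue, CPCC libraries in orange, a marker shape for each library and a bar at the mean of 3. Open triangles mark the upper limit of 3 counts per library for a table that leaves the gene out, and for each of the 7 genes in both tables the mESC points lie above the CPCC points.

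Dazl encodes an RNA-binding protein that controls translation in germ cells, and it showed the largest loss. It lies on chr17:50279393-50293621 (minus strand). On the CPM scale (normalized counts per 1000000), S01 had 219, S02 214 and S03 330, against 1.59 in S04, 3.76 in S05 and 5.39 in S06. S03 stood above the other mESC libraries, and the lowest mESC library was still 39.7-fold above the highest CPCC library. The means were 254 ± 65.9 CPM and 3.58 ± 1.90 CPM (SD, n = 3 each). The log2 fold change was −6.16 (standard error 0.42, edgeR adjusted p = 5.79e-06). Ranked from the most negative log2 fold change, Dazl was at place 28 of 12471 genes.

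Among the genes of the piRNA pathway and germ granule, which hold transposons down in germ cells, Tex19.1, Stk31 and Fkbp6 were in both tables. Tex19.1 restrains retrotransposons in germ cells and placenta, and lies on chr11:121146143-121148314 (plus strand). S01 had 242 CPM, S02 284 and S03 199, while S04 had 3.68, S05 9.94 and S06 13.9. The groups did not overlap, and the CPCC libraries differed from each other more, in proportion, than the mESC libraries. The log2 fold change was −4.73 (standard error 0.43, edgeR adjusted p = 2.58e-05), a fitted 26.5-fold lower level. The estimated count of Tex19.1 was not a whole number in S04, where it and that of its neighbouring copy Tex19.2 added up to 38.0, so reads were divided between the copies there.

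Stk31 encodes a protein with a Tudor and a kinase-like domain that is found with PIWI proteins in spermatogenic cells. It lies on chr6:49395604-49469503 (plus strand). Its mESC levels were 55.3, 53.7 and 69.9 CPM, in the order of the library names, and its CPCC levels 1.59, 0.970 and 1.49 CPM. These CPCC values rest on 16, 8 and 13 counts. It was the 1 member of the 7 in which S04 was not the lowest CPCC library. Its fold change on the log2 scale was −5.44 (standard error 0.29, edgeR adjusted p = 2.02e-06), a fitted 43.3-fold lower level. Fkbp6, an immunophilin that male meiosis and transposon silencing need, lies on chr5:135291704-135350045 (minus strand). The mESC libraries had 96.7, 111 and 91.1 CPM, and the CPCC libraries 1.69, 3.40 and 2.98 CPM. The lowest mESC library was 26.8-fold above the highest CPCC library. Its fold change on the log2 scale was −5.22 (standard error 0.28, edgeR adjusted p = 2.32e-06), a fitted 37.2-fold lower level.

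Mael and Asz1, both needed for piRNA production, were near the limit of detection already in mESCs. Mael (chr1:166201385-166238745, minus strand) had 12 counts in S01 (1.85 CPM), 33 in S02 (4.85 CPM) and 4 in S03 (0.585 CPM). S02 holds most of that signal. Against a floor of 3 counts per library, Mael was at least 7.25-fold lower in CPCCs, and the bound was 3.64-fold without S02 and 10-fold without S03. Asz1 (chr6:18050964-18109062, minus strand), which anchors germ granules to mitochondria, had 10, 8 and 12 counts, or 1.54, 1.18 and 1.76 CPM. Its bound was at least 4.45-fold lower in CPCCs, between 4.06 and 4.92 when 1 mESC library was left out. Neither gene has a test, since the CPCC table leaves them out. That table leaves out 5.52% of the 13761 genes of the mESC table.

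The meiotic genes Hormad1 and Sycp3 encode proteins of the chromosome axis, on which homologous chromosomes pair. Hormad1 (chr3:95559677-95587861, plus strand) had 17.3, 10.7 and 25.3 CPM in the mESC libraries, against 0.298 in S04, 2.06 in S05 and 1.15 in S06. The CPCC values rest on 3, 17 and 10 counts, so their own order is weakly measured, but each lay below each mESC value. The log2 fold change was −3.94 (standard error 0.61, edgeR adjusted p = 0.000519), a fitted 15.4-fold lower level. Sycp3 (chr10:88459587-88473237, plus strand) was lower still, at 3.71, 6.57 and 9.55 CPM in the mESC libraries and 0.318, 1.35 and 0.965 CPM in the CPCC libraries. The lowest mESC library was 2.75-fold above the highest CPCC library, the narrowest gap of the 7 genes. On the log2 scale the change was −2.96 (standard error 0.65, edgeR adjusted p = 0.00369), a fitted 7.79-fold lower level. Sycp3 overlaps the phospholipid gene Chpt1 on the opposite strand over 660 exon bases, and in 5 of 6 libraries its estimated count was not whole but added up with that of Chpt1 to a whole number, within 0.01. Reads were thus divided between them in those 5, and whether counting used the strand is not stated. Chpt1 itself went from 20.4, 25.9 and 26.7 CPM to 17.1, 16.7 and 14.0 CPM, a log2 fold change of −0.61 (edgeR adjusted p = 0.0435).

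Of the 2 members that act in transcription, Taf7l, the germ cell paralog of the TFIID subunit gene Taf7, was in neither table. Rhox5, a homeobox gene of the X chromosome that is known from Sertoli cells and placenta, lies on chrX:37754608-37808879 (plus strand). S01 had 271 CPM, S02 286 and S03 221, and the CPCC libraries had 7.75 (S04), 11.9 (S05) and 14.3 CPM (S06). The mESC libraries were close together, and the lowest of them was 15.4-fold above the highest CPCC library. On the log2 scale the change was −4.52 (standard error 0.26, edgeR adjusted p = 3.08e-06), a fitted 22.9-fold lower level.

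**Figure D3:**
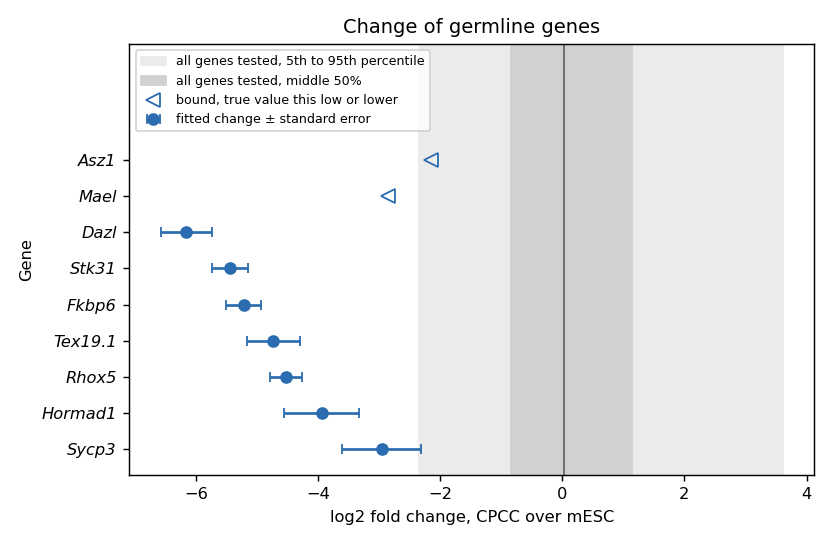
Log2 fold change in CPCCs against mESCs of each germline gene tested (points, with the standard error), over bands for the middle range and the 5th to 95th percentile of all genes tested. The 7 tested values run from −6.16 (Dazl) to −2.96 (Sycp3), all below the 5th percentile (−2.34), and open triangles give the bounds of Mael and Asz1.

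Per kilobase of exon, the levels in mESCs spanned a wide range. Rhox5 was at the top with 344 CPM per kb (293 to 379 over the 3 libraries), followed by Tex19.1 with 129 (106 to 152). Dazl at 66.6 CPM per kb (56.0 to 86.5) and Fkbp6 at 56.8 (52.0 to 63.3) had overlapping ranges. Stk31 had 18.4 CPM per kb (16.6 to 21.6). The axis genes followed, Hormad1 at 10.3 CPM per kb (6.21 to 14.6) and Sycp3 at 5.23 (2.93 to 7.55), with ranges that overlap. Mael at 1.40 CPM per kb (0.338 to 2.80) and Asz1 at 0.527 (0.416 to 0.620) were lowest, and their ranges overlap too. The length used for Rhox5 leaves out its upstream exons, since the GENCODE model starts downstream of the position in the tables, so its level per kb is overstated if reads fall there. In CPCCs Rhox5 (15 CPM per kb) and Tex19.1 (4.89) were again the highest, and the other 5 tested members lay between 0.417 and 1.53.

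The share of the mESC level that was left in CPCCs ran from 1.41% in Dazl to 13.3% in Sycp3, with a median of 3.79%. It differed by library, with medians over the 7 genes of 1.70% in S04, 4.12% in S05 and 5.52% in S06. S04 was the lowest CPCC library in 6 of the 7 genes, as in 43.0% of all genes tested. The order S04, S05, S06 from low to high held in 3 of the 7 (Dazl, Tex19.1 and Rhox5), against 24.9% of all genes. Markers of pluripotent cells moved with this. The 15 pluripotency genes had medians of 1.81%, 4.21% and 6.76% of their mESC level in S04, S05 and S06, S04 was lowest in 13 of them, and the order held in 12. Their summed level was 212, 415 and 557 CPM in S04, S05 and S06, against 7740 to 8000 CPM in mESCs, and none of the 15 was at 0 in all CPCC libraries. The summed level of the members was 16.9, 33.4 and 40.2 CPM in S04, S05 and S06, against 908 to 972 CPM in mESCs. The part of remaining stem cells in the level left was not tested.

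**Figure D4:**
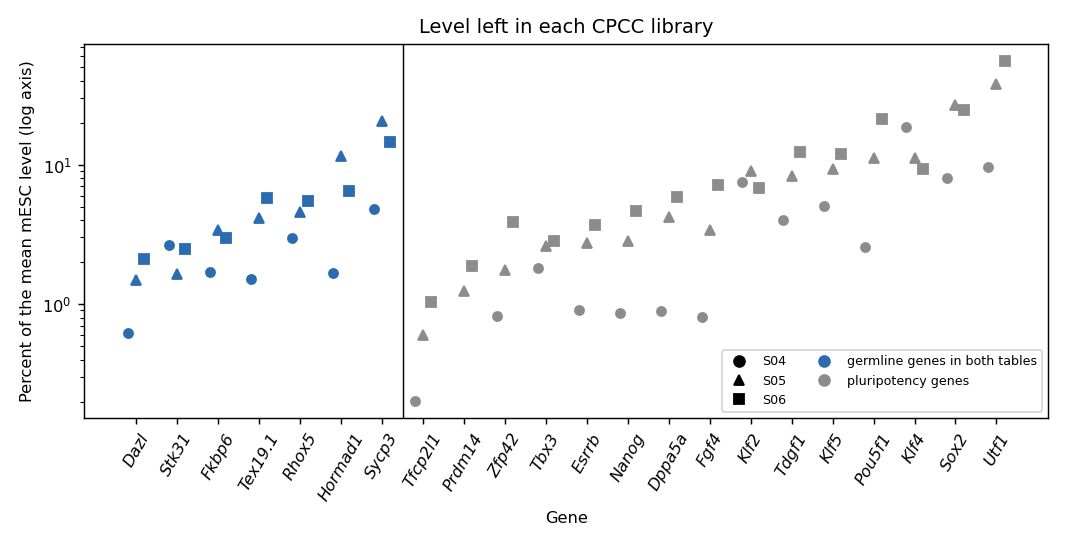
Level in each CPCC library as a percent of the mean mESC level, on a log axis, for the 7 germline genes in both tables (blue) and 15 pluripotency genes (grey), with a marker shape for each library. S04 (circles) is the lowest library in 6 of the 7 and 13 of the 15 genes, and Prdm14 had no count in S04 and has no point there.

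Other cell types that the cultures could hold were read from their markers. Of all genes tested, 31.7% were higher in CPCCs. Of 12 fibroblast and mesenchyme markers, 5 were tested and 5 were higher in CPCCs, with a median log2 fold change of 5.06, and 7 were listed for CPCCs only. The sum of this list was 9440 to 13800 CPM in CPCCs, as against 110 to 155 CPM in mESCs. Of 14 cardiac progenitor markers, 3 of 6 tested were higher, 7 were listed for CPCCs only and Tbx5 for mESCs only. The sum of this list was 560, 174 and 183 CPM in S04, S05 and S06. Tnnt2, a cardiac troponin gene, had a log2 fold change of 5.01, while Nkx2-5, a defining cardiac factor, had at most 1.59 CPM in a CPCC library. Of 10 endoderm markers, 4 of 5 tested were higher, among them Foxa2 with a log2 fold change of 4.94. Amn and Cubn were listed for CPCCs only, and Afp and Ttr were in neither table. Rhox5 is known from Sertoli cells, so 10 genes of the somatic gonad were read too. Of these, 1 of 3 tested was higher (Dhh, log2 fold change 3.15), 4 were listed for CPCCs only and Nr5a1 and Cyp17a1 were in neither table. Of those that were higher, 1 of the 5 mesenchyme, 2 of the 3 cardiac, 2 of the 4 endoderm genes and Dhh passed the filter through their CPCC libraries only. Their part in the members' levels was not tested.

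Genes that share the members' roles did not all fall. Of 18 further genes of the piRNA pathway and germ granule, 11 were tested, of which 6 fell, 2 rose and 3 did not pass. Over all genes tested, 29.7% were lower and 31.7% higher. Of the 6, Gpat2, Tdrd12 and Pld6 passed the filter on low counts only through their mESC libraries, and both that rose only through their CPCC libraries, so the filter bears on their direction. Gpat2, which primary piRNA production needs, fell with a log2 fold change of −5.14 (edgeR adjusted p = 0.000225). Tdrd12 fell from 208, 192 and 170 CPM to 0.795, 7.28 and 17.9 CPM in S04, S05 and S06 (log2 fold change −4.47, edgeR adjusted p = 0.000784). Tdrd7, a Tudor protein gene, rose instead, from 0.309, 0.0 and 1.17 CPM to 17.1, 18.2 and 14.2 CPM (log2 fold change 5.01, edgeR adjusted p = 0.000264). Tdrkh was the other that rose, with a log2 fold change of 2.44. Of 4 genes listed in 1 table only, Gtsf1 was at least 16.9-fold and Piwil1 at least 6.96-fold lower in CPCCs, and Tdrd1 was at least 4.49-fold higher there.

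Of 28 further meiosis genes, 14 were tested, of which 10 fell and 4 did not pass, where 29.7% of all genes tested were lower. Of the 10, 8 passed the filter only through their mESC libraries, so they had to be lower to be tested, and the count is no support for a direction of the list. A further 7 were in the mESC table only, 4 in the CPCC table only and 2 in neither. Tex14, a gene of the bridges between germ cells, had a log2 fold change of −4.44 (edgeR adjusted p = 0.000853). Syce1, a part of the synaptonemal complex, had −4.28 (edgeR adjusted p = 0.000176), and Dmc1, the meiotic recombinase, −3.20 (edgeR adjusted p = 0.000129). Smc1b, a meiotic cohesin gene listed for mESCs only, was at least 23.2-fold lower, and Msh4 at least 9.56-fold. Tex15 did not pass, with 28.3, 36.8 and 35.4 CPM against 30.1, 37.5 and 30.1 CPM in CPCCs (log2 fold change −0.04, standard error 0.21). Of 12 spermatid and sperm genes, which act after meiosis, 10 were in neither table, 1 was tested and fell (Odf2, log2 fold change −1.21), and Ldhc was at least 3.73-fold lower.

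All 8 tested of 9 genes of primordial germ cell specification fell, where 29.7% of all genes tested were lower. Of the 8, 5 passed the filter through their mESC libraries only (Prdm14 and Dppa3 among them), and some of the 8 are also pluripotency genes. Prdm14 had a log2 fold change of −6.63 (edgeR adjusted p = 4.19e-05), Dppa3 of −4.91 (edgeR adjusted p = 1.34e-05) and Tfap2c of −4.08 (edgeR adjusted p = 3.01e-06).

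**Figure D5:**
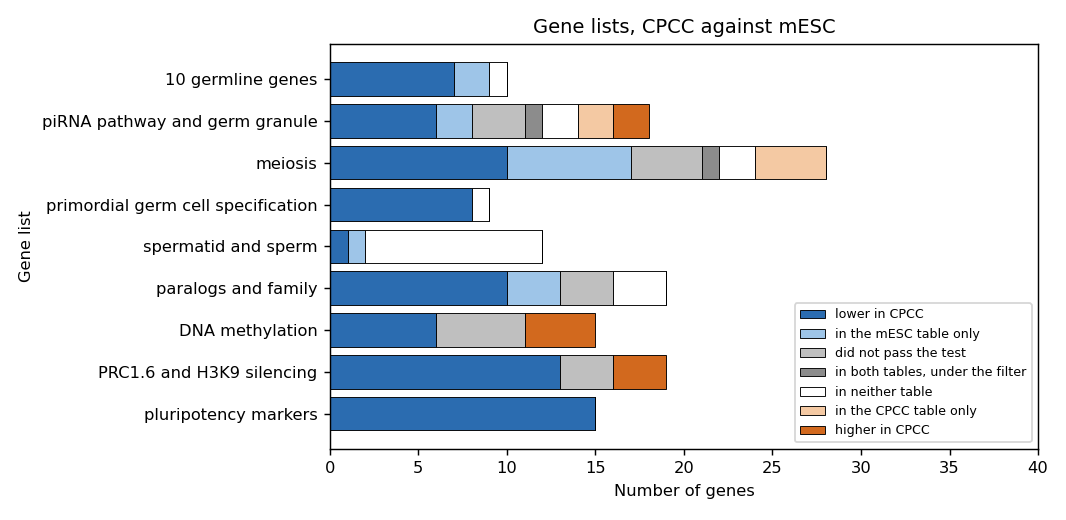
Number of genes of each list by outcome in CPCCs against mESCs, where dark blue is lower, orange higher, light grey tested but not passed, dark grey under the filter, and pale or white bars are genes that 1 or both tables leave out. All tested germline genes (7) and pluripotency markers (15) were lower, where 29.7% of all genes tested were lower and 31.7% higher. The further piRNA genes hold 6 lower and 2 higher. Only the group where they are high took 3 germline, 2 pluripotency, 3 lower piRNA and 2 higher piRNA genes past the filter.

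Families of the members were read gene by gene, since a paralog can share reads. Tex19.2, the copy beside Tex19.1, fell from 40.6, 47.2 and 39.9 CPM to 0.102, 0.485 and 1.38 CPM (log2 fold change −6.03, edgeR adjusted p = 2.38e-05). Taf7, the general partner of the unlisted Taf7l, fell from 287, 340 and 299 CPM to 38.6, 44.0 and 59.5 CPM (log2 fold change −2.70, edgeR adjusted p = 1.03e-05). Hormad2 fell with a log2 fold change of −2.87 (edgeR adjusted p = 0.000436). Of the immunophilins, Fkbp4 (log2 fold change −2.02) and Fkbp5 (−2.29) fell, and Fkbp8 at −0.33 did not pass (edgeR adjusted p = 0.109). In the Rhox cluster of the X chromosome, Rhox1 fell (−3.82, edgeR adjusted p = 0.00301), while Rhox6 (−0.50, edgeR adjusted p = 0.601) and Rhox9 (−0.67, edgeR adjusted p = 0.514) did not pass, at no more than 5.88 CPM. Rhox13 was in the mESC table only and Rhox10 in neither. The Xlr genes of the X, which are related to Sycp3, fell too, with log2 fold changes of −3.60 in Xlr3a, −2.98 in Xlr3b, −3.31 in Xlr4a and −4.30 in Xlr5a. They are related genes, and the division of reads among them was not examined, so it is uncertain. Xlr, with 6, 6 and 18 counts in the mESC libraries, was at least 4.42-fold lower. Boll, the DAZ relative of Dazl, had 0, 9 and 2 counts there. Its mean was 1.61-fold the CPCC floor of 0.335 CPM, but S01 and S03 lay below that floor, so no fall is read. Taf7l2 and Slx were in neither table. Of 13 family genes tested, 10 fell and 3 did not pass, where 29.7% of all genes tested were lower. Of the 10, 4 (Tex19.2, Hormad2, Rhox1 and Xlr5a) passed the filter through their mESC libraries only.

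The genes that write, read and remove DNA methylation moved in both directions. Of 15 tested, 6 fell, 4 rose and 5 did not pass, with a median log2 fold change of −0.45. Among all genes tested, 29.7% were lower, 31.7% higher and 61.4% different in either direction. Movement in both directions does not by itself set this list apart. Tet1, a 5-methylcytosine dioxygenase, fell from 412, 461 and 390 CPM to 31.4, 70.9 and 103 CPM (log2 fold change −2.62, edgeR adjusted p = 0.000312), while Tet3 rose from 15.1, 4.56 and 13.2 CPM to 88.7, 72.2 and 71.9 CPM (2.82, edgeR adjusted p = 0.000233). Hells, a remodeller that DNA methylation needs, fell with −2.74 (edgeR adjusted p = 0.000272). Of the methyltransferases, Dnmt1 fell from 232, 210 and 248 CPM to 48.0, 72.8 and 102 CPM (log2 fold change −1.63), Dnmt3b had −1.45 and Dnmt3a rose with 1.28.

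Of 19 tested genes of PRC1.6 and of H3K9 silencing, 13 fell, 3 rose and 3 did not pass. That is 68.4% lower and 15.8% higher, against 29.7% and 31.7% of all genes tested. The median log2 fold change of the 19 was −0.74. Wdr5 fell with −2.44 (edgeR adjusted p = 3.44e-05), Pcgf6, the subunit that sets PRC1.6 apart, with −2.20 (edgeR adjusted p = 4.19e-05) and Trim28 with −2.07 (edgeR adjusted p = 0.000158). Mga, which binds the E-box with Max, fell from 184, 194 and 242 CPM to 122, 123 and 128 CPM, a log2 fold change of −0.74, and Max had −0.66. E2f6 rose, from 52.8, 63.0 and 54.0 CPM to 96.8, 92.5 and 88.6 CPM, with a log2 fold change of 0.71. Over all 1017 tested genes with an E-box in the window, 33.2% were lower in CPCCs and the median log2 fold change was −0.14, as against 29.6% and 0.04 for those without one.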

How the data were processed

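RNA of 3 mESC and 3 CPCC samples was sequenced from SMART-Seq v4 libraries. Without normalizing them, the authors deposited estimated counts per gene in 1 table per cell type. The submitters' processing notes name STAR 2.7 and the build mm10, and the counter is not given in the sources used here. In each library 17.9% to 21.5% of the genes have a count that is not whole. Gene positions are as in the tables, whose end is 1 base past the last for many genes. Columns were assigned to cell types by the table's name.

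Counts were rounded. The 13001 genes in both tables were filtered with filterByExpr (at least 10 counts, which is 1.331 CPM, in 3 samples), which left 12471, and tested with edgeR 4.0.16 (R 4.3.3, quasi-likelihood, TMM, Benjamini-Hochberg adjustment, adjusted p under 0.05). CPM were scaled with the TMM library sizes. The samples of a group are separate lines, and the CPCCs came from the same lines as the mESCs, but the columns do not say which, so the fit was unpaired. For a gene in 1 table only, a bound was computed as its mean CPM over a floor of 3 counts per library. The bound holds no term for counting error or for the spread between libraries. Exon lengths came from GENCODE M21. DESeq2 1.42.0, other normalizations and filters and leaving out each library were the alternatives. The choice of the promoter window by any RefSeq start was added after the data were seen.

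In counts simulated for 13001 genes, with 200 changed, edgeR recovered 23 of 66 genes changed 2-fold, 56 of 64 changed 4-fold and 66 of 70 changed 8-fold, with 8 false calls. The members, lists and tests were chosen with earlier results of these data known. Named are the 10 members, of each other list up to 3 tested genes with the largest change past the threshold and up to 2 with the largest bound, and the genes of the family list. Tdrkh, Tdrd1, Tex15, Nkx2-5, Chpt1, Dnmt1, Dnmt3a, Dnmt3b, Mga, Max and E2f6 were chosen after their values were seen.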

Additional observations from a re-analysis of the deposited data

How the results depend on the processing

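All 7 germline genes in both tables kept a lower call in CPCCs under every alternative in which they were tested, and none reversed. Their log2 fold changes ranged most widely in Hormad1 (−4.62 to −3.45, highest edgeR or DESeq2 adjusted p 0.00429) and Sycp3 (−3.43 to −2.53, highest adjusted p 0.0209). With at least 10 counts required in every sample, 4 were called, because Sycp3, Stk31 and Hormad1 were then not tested. The median of the members was −5.16 to −4.32 when 1 library was left out, with −5.16 without the CPCC library S06. Over all genes, 3701 were lower, and 2430 with a 2-fold threshold. With genes missing from a table set to 0 or 3 counts, Mael and Asz1 did not pass the filter. The depth limits Mael and Asz1, with 4 to 33 counts per mESC library, and the CPCC levels of Hormad1 and Sycp3. The promoter window chosen by any RefSeq start gave 6 genes with an E-box as well. No paired analysis was possible because the columns carry no replicate numbers.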
